A study of Mus musculus with 12 samples.

Results

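Cytosolic ribosomal protein genes are described here in mouse cortex. They were taken by symbol, as every row named Rpl or Rps with a number and at most a letter a, x or y and 1 further digit, together with Rplp0, Rplp1, Rplp2 and Rpsa. The rule found 79 genes among the 41388 of the count table, 46 of the large 60S subunit and 33 of the small 40S subunit. Of these 77 are protein-coding and 2, Rps3a2 and Rps3a3, are processed pseudogenes in GENCODE. All 79 passed the filter on low counts, which kept 17441 genes.

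The libraries are poly(A) RNA-seq of cortex from adult C57Bl/6 mice. Grin1 encodes the subunit common to NMDA receptors, and its exon 5 is an alternative cassette. Knock-in mice with the genotype Grin1-exon5+/+ always include the exon (KI), knockout mice with the genotype Grin1-exon5-/- lack it (KO), and each line has wild types of its own (KI_WT and KO_WT). Each of the 4 groups has 3 libraries from separately numbered animals, and the labels state no Cre driver and no treatment.

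Ribosomal proteins are made in matched amounts because the ribosome is built from them in fixed proportion. Their messenger RNAs typically begin with a terminal oligopyrimidine (TOP) tract, an uninterrupted run of C and T (U in RNA) at the first transcribed base, through which the growth pathway of mTOR and the binding protein Larp1 govern translation. In neurons some of these messengers are also carried into dendrites and axons.

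The region around the start site is shown for 8 members on which the results below turn, 3 of them among the most abundant (Rps27, Rpl4, Rps12), Rpl38 with a small p in KO, and 4 that depart from it (Rpl27, Rpl31, Rpl24, Rpl41), all picked with their values known. Each line gives 30 bases before and 30 after the RefSeq start on the strand of the gene, with the longest run of C and T in capitals.
Rps27: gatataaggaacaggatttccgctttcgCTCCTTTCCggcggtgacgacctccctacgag
Rpl4: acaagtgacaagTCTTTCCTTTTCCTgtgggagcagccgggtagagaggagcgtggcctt
Rps12: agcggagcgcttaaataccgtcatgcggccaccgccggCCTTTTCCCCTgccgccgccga
Rpl38: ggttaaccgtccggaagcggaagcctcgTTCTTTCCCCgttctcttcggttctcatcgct
Rpl27: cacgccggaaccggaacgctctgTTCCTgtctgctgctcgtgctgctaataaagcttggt
Rpl31: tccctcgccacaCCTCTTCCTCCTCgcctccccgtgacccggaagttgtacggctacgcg
Rpl24: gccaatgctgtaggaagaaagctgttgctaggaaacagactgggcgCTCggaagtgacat
Rpl41: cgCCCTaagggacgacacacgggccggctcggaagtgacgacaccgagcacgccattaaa

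The windows lie on GRCm38.p6 at chr3:90213619-90213678 (Rps27, minus strand), chr9:64173357-64173416 (Rpl4, plus), chr10:23787180-23787239 (Rps12, minus) and chr11:114668550-114668609 (Rpl38, plus). Those of the departing members are at chr11:101442215-101442274 (Rpl27, plus), chr1:39367821-39367880 (Rpl31, plus), chr16:55966245-55966304 (Rpl24, plus) and chr10:128549139-128549198 (Rpl41, minus). The run is 9 bases long in Rps27, 14 in Rpl4, 11 in Rps12, 10 in Rpl38 and 13 in Rpl31, and 5, 4 and 3 in Rpl27, Rpl41 and Rpl24. In Rps27 and Rpl38 the run spans the annotated start, in Rpl4 and Rpl31 it ends before it, and in Rps12 it begins after it. The bases after the RefSeq start of Rpl27 were not found in a GENCODE transcript, whose gene begins at chr11:101442298, so a different start would show a different window. Such bases were found for 55 of the 67 windows of members. The GENCODE gene of Rpl41 begins upstream of its RefSeq start, at chr10:128549305. Annotated starts can thus be inexact, and a short run in a window does not show that a TOP tract is absent.

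RefSeq promoters were matched by symbol for 57 of the 79 members, 8 of them with more than 1 start. A run of at least 8 C or T within 30 bases of a start was present in 32 of 57 members (56.1%) and in 25.8% of the 27025 genes of the promoter table. A run of at least 10 was present in 25 members (43.9%) and in 12.6% of all genes. At 6 bases the shares were 80.7% and 53.5%, and at 12 bases 24.6% and 6.45%.

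Short letter strings were searched on both strands over 300 bases, from 250 before to 50 after the start. CGGAAG, the core bound by ETS factors, was present in 40 of 57 members (70.2%), in 18.8% of all genes and in 23.5% of protein-coding genes. Its longer or overlapping forms CCGGAAGT, ACTTCCG and TTCCGG were in 19.3%, 35.1% and 56.1% of members against 4.31%, 7.20% and 16.7% of all genes. A palindrome of 10 bases around CGCG was in 6 members (10.5%) and 0.530% of all genes. TATAAA, the TATA box, was in 10.5% of members and 15.7% of all genes.

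The remaining strings gave 8.77% and 2.03% for TGACGTCA, 10.5% and 8.09% for CACGTG, 61.4% and 38.2% for GGGCGG, and 5.26% and 1.64% for AAGATGGCG. Pyrimidine strings gave 31.6% and 9.28% for CTCTTTC, 28.1% and 24.3% for CTTTTC, 42.1% and 26.5% for CCTTTC, and 50.9% and 29.3% for CTTTCC. In all 14 distinct strings and 4 run lengths were searched, the shares of each are given here, and the run lengths and strings were tried with their values in view. A match describes letters and not a bound site, and the shares are not adjusted for base composition.

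Members were abundant and differed widely in level. Their mean level in RPKM, which divides counts by gene length and library total, had a median of 115 over the 77 coding members and of 4.45 over all tested genes, and all 77 lay above the latter. The highest was Rplp1, an acidic protein of the stalk that recruits elongation factors, at 727 to 1003 RPKM over the 12 libraries (832 ± 93.1, SD, n = 12). Its partners in the stalk were lower per length, Rplp0 at 110 to 136 RPKM and Rplp2 at 26.3 to 37.7.

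Rps27, a zinc-binding 40S protein, followed at 367 to 609 RPKM, with KI_WT 2 (609) and KO 1 (575) above all other libraries and KO_WT 1 lowest. Rps15, which lies near the decoding site, was at 337 to 456 RPKM and Rpl4, a core 60S protein, at 377 ± 25.8 (SD, n = 12). Rps12 was at 266 to 410 RPKM and Rps3a1 at 275 to 397. Rps15 and Rpl4 were each above both Rps12 and Rps3a1 in every library. Rpsa, the 40S protein also known as the laminin receptor precursor, was at 207 to 266 RPKM.

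At the low end of the coding members stood Rpl18 at 19.0 to 27.7 RPKM and Rps20 at 19.8 to 32.5. The pseudogenes were far lower. Rps3a2 was at 0.916 to 2.05 RPKM, with KI_WT 3 lowest. Rps3a3 was at 0.379 to 0.799, with KI 2 highest, and it lies within Pde4d on the same strand, so its reads can belong to that gene.

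**Figure D1:**
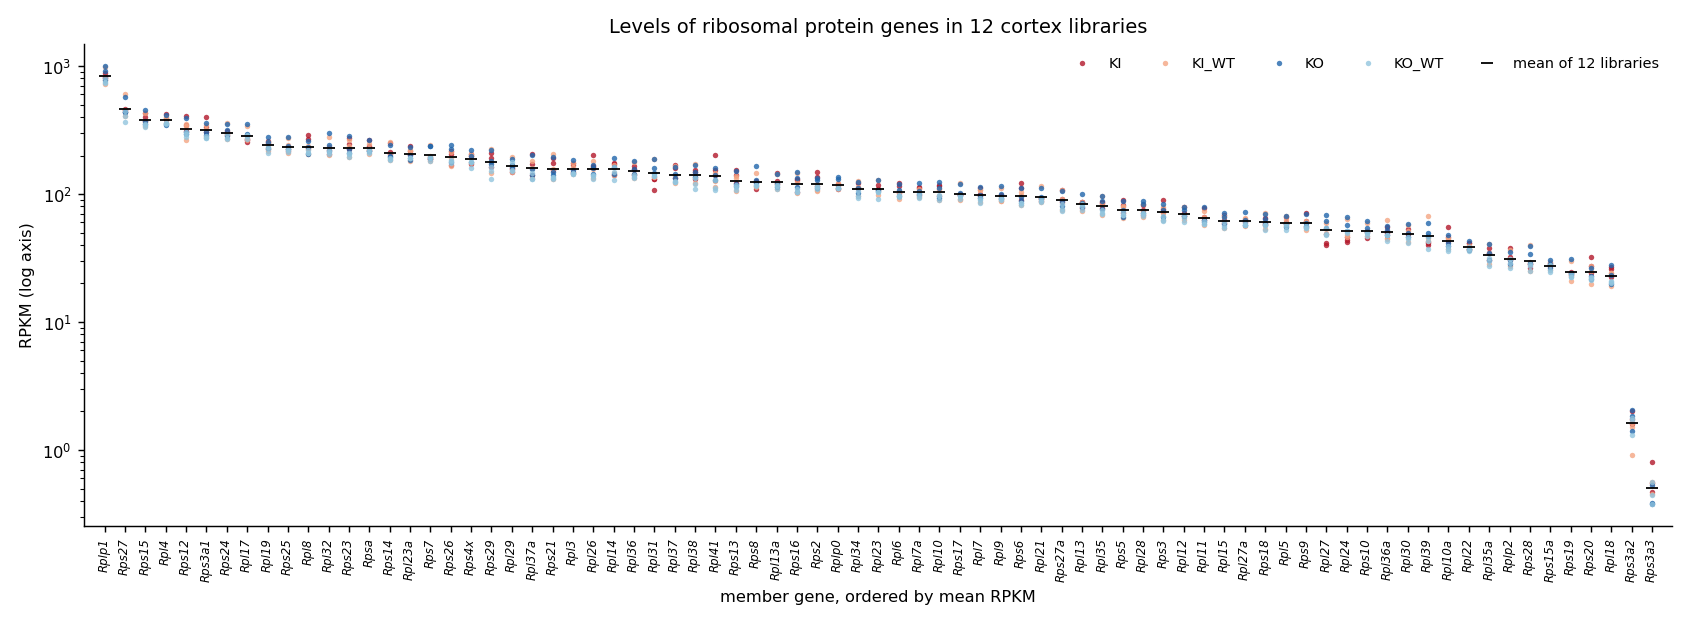
RPKM on a log axis of 77 of the 79 members, ordered by mean, with 1 point per library coloured by group and a bar for the mean of the 12 libraries. Coding members run from 832 (Rplp1) to 22.9 (Rpl18) in mean, and the pseudogenes Rps3a2 and Rps3a3 stand apart at 1.63 and 0.506.

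This order depended on the length used. The length implied by the authors' RPKM was a median of 3.06 times the coding length, and up to 16.1 times. The ratio of the 90th to the 10th percentile of the coding members was 6.30 in RPKM and 2.63 in CPM, counts scaled to the library total, per kb of coding sequence. Spearman's rho between both orders, across 77 genes that are not independent, was 0.455. Rpl41, which encodes the smallest ribosomal protein, moved from rank 32 in RPKM to rank 1 per coding kb (2150 CPM per kb), with a coding length of 75 bases. Rpl24 had the lowest level per coding kb, 113.

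Levels differed little among animals. The median coefficient of variation of RPKM over all 12 libraries was 11.3% for the coding members. Libraries held 31790970 to 36514024 counts and 21927 to 22809 detected genes, and the family took 1.23% to 1.62% of the counts. Markers of cortical glutamatergic neurons, 10 of 10 detected, summed to 1033 to 1598 CPM. By 4 Y-linked genes the sexes were spread unequally, with both in KI, KI_WT and KO and only males in KO_WT. These genes summed to 185 to 234 CPM in KI 1, KI_WT 2, KI_WT 3, KO 3 and all KO_WT libraries. In the other 5 they summed to 0.03 to 0.12. The family's share was 1.42%, 1.53% and 1.32% in the KI libraries, against 1.23%, 1.56% and 1.38% in their wild types. Knockouts gave 1.62%, 1.41% and 1.30%, against 1.25%, 1.26% and 1.30% in theirs. KO_WT varied least, and the groups overlapped in each of the 4 comparisons below.

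The share was 1.42% ± 0.104 in KI, 1.39% ± 0.167 in KI_WT, 1.44% ± 0.165 in KO and 1.27% ± 0.0283 in KO_WT (SD, n = 3). Two-sided exact permutation tests gave p = 0.8 for KI against KI_WT, 0.2 for KO against KO_WT, 1 for KI against KO and 0.4 for the wild types, where 0.1 is the smallest that 3 against 3 allows. Adjusted over the 4 comparisons, the exact permutation p was 0.8 for both contrasts with KO_WT and 1 elsewhere. In bulk tissue fewer cells rich in these messengers and less messenger per cell cannot be told apart.

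Members lay high or low together in a library. In KI_WT 2 and in KO 1 each of the 79 members lay above its own mean over all libraries, and in KI_WT 1 only 1 did. The family median, as log2 CPM scaled by TMM, relative to each member's mean, was 0.24 in KI_WT 2, 0.21 in KO 1 and -0.13 in KI_WT 1. The other libraries lay between -0.10 (KO_WT 2) and 0.06 (KI 2). Wild types of the same line thus spanned the whole range. Subtracting the family median from every library lowered the median SD of the coding members from 0.140 to 0.0738 log2 units.

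Values of both subunits lay close together. Large-subunit genes had a median of 0.24 in KI_WT 2 and 0.20 in KO 1, and small-subunit genes 0.23 and 0.21. The 77 tested nuclear genes for mitochondrial ribosomal proteins, a separate set, stood at 0.0054 in KI_WT 2 and 0.11 in KO 1.

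The shortest genes outside the family moved in the same direction as the members. Among other nuclear genes above 10 CPM, the 128 of up to 800 nucleotides had a median of 0.16 in KI_WT 2, 0.20 in KO 1 and -0.10 in KI_WT 1. Most members exceed 800 nucleotides in the length implied by the RPKM. The 567 other genes of the next length class stood at 0.04 in KI_WT 2, 0.15 in KO 1 and -0.07 in KI_WT 1. The 2262 of the class after it stood at -0.02, 0.07 and -0.03 in the same libraries. The 2917 genes over 6000 nucleotides lay at -0.13 in KO 1 and -0.04 in KI_WT 2. Across the coding members, which are not independent, coding length had a Spearman rho of -0.617 with the deviation in KI_WT 2, -0.392 in KO 1 and 0.109 in KI 2, which ranked 3 of 12 for the family. Length classes were chosen after the data were seen, and their part in the family's levels was not tested beyond the removal of a length trend given below. All RNA had an integrity number above 8 according to the labels, and no value per library was given.

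**Figure D2:**
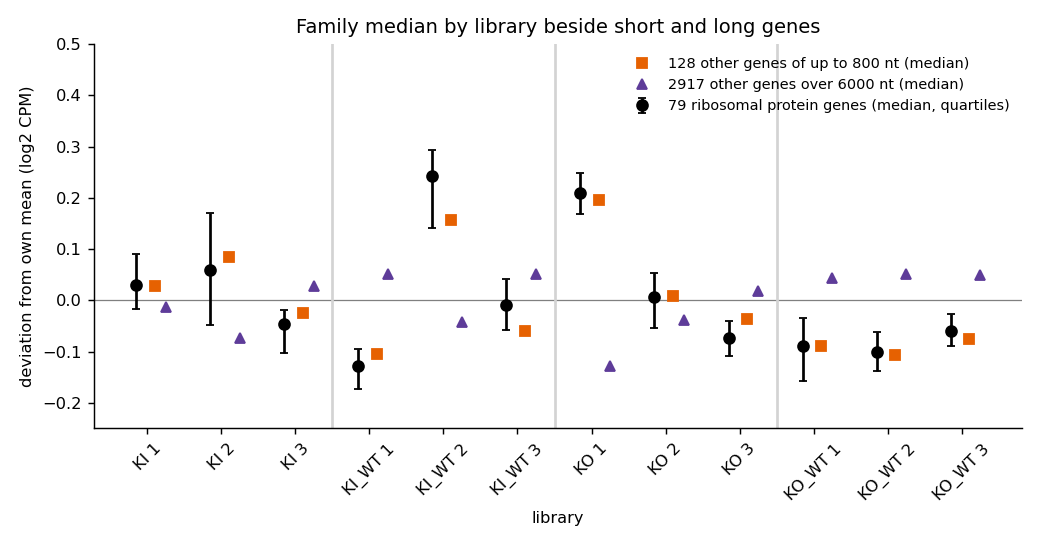
Median deviation from the own mean, in log2 CPM, by library for the 79 members (circles, bars are quartiles over genes), 128 other short genes (squares) and 2917 other long genes (triangles). Members and short genes are highest in KI_WT 2 and KO 1 and below 0 in KI 3, KI_WT 1, KI_WT 3, KO 3 and the KO_WT libraries. Long genes are lowest in KO 1.

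**Figure D3:**
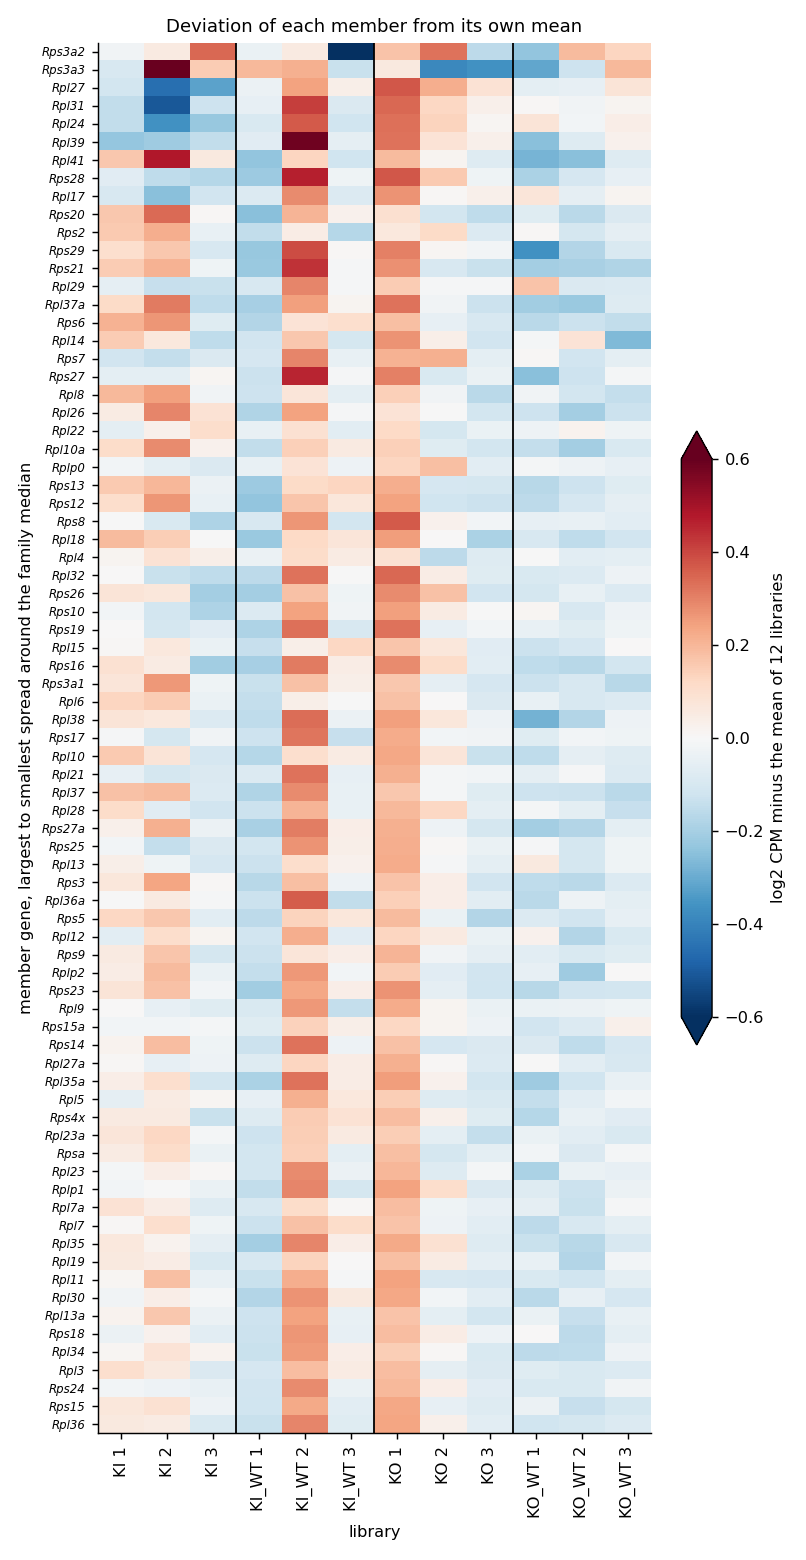
Deviation of 77 of the 79 members (rows) from its own mean in each library (columns), in log2 CPM, with rows ordered from the largest to the smallest spread around the family median. The columns KI_WT 2 and KO 1 are high throughout, and a few rows near the top, among them Rpl27, Rpl31 and Rpl24, are low in KI 2.

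In KO against KO_WT 0 of 79 members were called at an adjusted p of 0.05 with edgeR's quasi-likelihood fit (background 0.00573% of tested genes, smallest adjusted p 0.678). At an unadjusted p under 0.05 there were 2 higher members (background 3.43%) and 0 lower (background 3.79%). The fitted log2 fold change was above 0 for 77 members (background 52%) and below 0 for 2 (background 48%), with a median of 0.13 beside 0.01 over all tested genes. The 3 KO libraries all lay above the 3 KO_WT libraries for 16 members (background 5.95%) and below them for 0 (background 6.4%). The median was 0.06 without KO 1 and 0.20 without KO 3, and 0.06 with the trend on gene length removed, an alternative chosen after the data were seen. Short genes outside the family (up to 800 nucleotides) had a median of 0.15 in this comparison. It was 0.11 in the next length class and 0.05 in the class after it. Choroid plexus markers (8 of 8 higher) summed to 568 to 1090 CPM in KO and 23.2 to 904 in KO_WT, and oligodendrocyte markers (9 of 9 lower) to 4896 to 10753 and 9010 to 11615. Thalamus markers were higher in 10 of 10 (median 0.51, 4 with an unadjusted p under 0.05). Their sums overlapped, at 223, 337 and 527 CPM in KO and 232, 394 and 226 in KO_WT, with KO 1 lowest of all libraries. Lower were 6 of 6 oligodendrocyte precursor markers (median -0.35, 3 with an unadjusted p under 0.05), 7 of 7 of endothelium (-0.18, 3), 7 of 7 of striatum (-0.39, 0) and 5 of 5 of blood (-0.36, 0). So were 7 of 8 microglia markers (-0.10, 2), 5 of 8 of astrocytes (-0.14, 2) and 8 of 10 of cortical glutamatergic neurons (-0.14, 0). Striatum sums were 1309, 474 and 503 CPM in KO and 1155, 848 and 785 in KO_WT, with KO 1 highest of all libraries. None of the markers in these lists was at 0 in all libraries, and their part in the result was not tested beyond a fit with terms for regional markers (olfactory bulb, thalamus and choroid plexus), where the members' median was 0.18.

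Rpl27, Rpl38 and Rps29 were among the members of smallest p in KO. Rps29, a small zinc-binding 40S protein, was at 150, 123 and 120 CPM in KO and 94.6, 108 and 114 in KO_WT (log2 fold change 0.31, SE 0.15; adjusted p = 0.678 with edgeR). Without KO 1 it was 0.20. Rpl38, known for its effect on translation of Hox messengers in embryos, was at 89.1, 78.6 and 73.6 CPM in KO and 61.7, 66.4 and 73.4 in KO_WT (0.26, SE 0.12). In both of these KO 3 lay next to the wild types and KO 1 was highest. Rows named as pseudogenes of Rpl38 held 20.5% as many counts as Rpl38 itself, so its value is the less certain one.

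By role, the median in KO was 0.12 for the stalk genes (3 of 3 higher), 0.14 for genes around the exit tunnel (9 of 9 higher) and 0.13 for genes at the decoding site (5 of 5 higher). For genes mutated in Diamond-Blackfan anaemia, an inherited failure of red cell production, it was 0.14 (9 of 9 higher), and for the 4 X-linked members 0.15 (4 of 4 higher). Y-linked genes were near 0 in KO 1 and KO 2 and high in KO 3 and all KO_WT libraries, and with a term for their level the median of all members was 0.16. Rpl5 and Rpl11, which with 5S RNA bind Mdm2, were at 0.07 and 0.11. Rps6, the substrate of S6 kinase, was at 0.16 with KO above KO_WT in all libraries. No member of these lists passed edgeR's adjusted threshold.

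In KI against KI_WT the family was level, with a median log2 fold change of -0.02 (-0.01 over all tested genes), 34 members higher (background 48.7%) and 45 lower (background 51.3%). By edgeR 0 of 79 passed (background 0%, smallest adjusted p 0.705). At an unadjusted p under 0.05 there were 2 higher (background 3.04%) and 5 lower (background 3.92%). Libraries did not overlap for 5 members, all lower in KI (background 5.87%; 0 were higher, background 6.32%), namely Rpl27, Rpl31, Rpl24, Rpl39 and Rpl17. The median turned with single libraries, from -0.10 without KI_WT 1 to 0.08 without KI_WT 2, and was 0.13 with terms for regional markers. Thalamus marker sums did not overlap, at 309 to 477 CPM in KI and 227 to 253 in KI_WT. The regional terms thus cannot be fully told apart from the group, here and for the single genes below. By role the median was -0.05 for the stalk genes, -0.04 for the exit tunnel, 0.05 for the decoding site (5 of 5 higher) and -0.08 for the Diamond-Blackfan genes (8 of 9 lower).

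Rpl27, a 60S protein mutated in rare cases of Diamond-Blackfan anaemia, was at 73.7, 58.0 and 63.7 CPM in KI and 77.5, 94.0 and 81.5 in KI_WT. It was at 103, 92.3 and 84.3 CPM in KO and 76.3, 76.7 and 83.9 in KO_WT. The KI libraries were the lowest 3 of the 12, and the KO libraries the highest of the knockout line. Against the own wild types Rpl27 differed by -0.37 in KI (log2, SE 0.11; adjusted p = 0.705 with edgeR) and by 0.24 in KO (SE 0.11; adjusted p = 0.678 with edgeR). Without KI_WT 2 the KI value was -0.29, and without KO 1 the KO value was 0.16. Over the alternatives that do not leave out a single library they ran from -0.41 to -0.28 and from 0.16 to 0.30.

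Rpl31, a 60S protein at the exit of the peptide tunnel, was at 162, 126 and 165 CPM in KI and 173, 239 and 169 in KI_WT. It was at 228, 196 and 184 CPM in KO and 180, 177 and 182 in KO_WT. KI lay below every other library, by little in KI 1 and KI 3, and the log2 fold change against KI_WT was -0.36 (SE 0.14) with all libraries, -0.18 without KI_WT 2 and -0.15 with terms for regional markers.

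Rpl24, a 60S protein that reaches towards the small subunit, was at 47.5, 40.8 and 44.8 CPM in KI and 49.3, 67.9 and 48.4 in KI_WT. It was at 66.1, 57.7 and 53.0 CPM in KO and 55.5, 51.9 and 53.9 in KO_WT. The 3 KI libraries were again lowest, with a log2 fold change of -0.31 (SE 0.13) that was -0.14 without KI_WT 2 and -0.05 with terms for regional markers.

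Rpl41 went the other way. It was at 178, 222 and 165 CPM in KI and 135, 174 and 147 in KI_WT, which overlapped, a log2 fold change of 0.31 (SE 0.13) that was 0.18 without KI 2. In KO it was at 181, 161 and 150 CPM, and in KO_WT at 131, 134 and 151. KI 2 held the highest level of the 12 libraries.

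**Figure D4:**
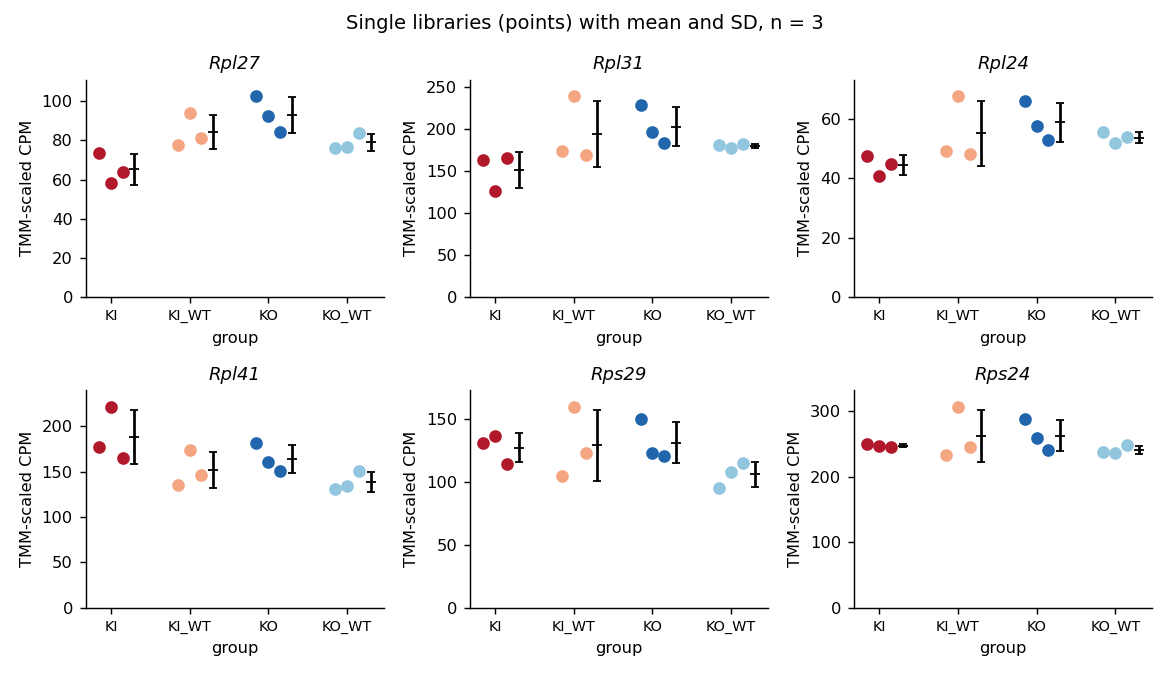
TMM-scaled CPM of Rpl27, Rpl31, Rpl24, Rpl41, Rps29 and, as a member that follows the family closely, Rps24, with 1 point per library and the mean and SD of each group (n = 3). KI libraries are lowest for the first 3 and KI 2 (the middle KI point) is highest for Rpl41, and Rps24 is at 245 to 250 in all KI libraries.

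Relative to the family median of the same library these genes stood lowest in KI 2, Rpl31 by -0.57, Rpl27 by -0.51 and Rpl24 by -0.42 log2 units, while Rpl41 stood at 0.42. The pseudogenes had the largest spread around the family (SD 0.315 for Rps3a2 and 0.275 for Rps3a3), and among coding members Rpl27 (0.210) was near the top. The closest followers were Rpl36 (0.0341), Rps15 (0.0380), Rps24 (0.0386) and Rpl3 (0.0416). Transcripts of the mitochondrial genome took 3.48% of the counts of KI 2, the lowest of all, with 4.29% ± 0.749 in KI and 6.37% ± 1.29 in KI_WT (SD, n = 3). The 8 choroid plexus markers summed to 1947 CPM in KI 2, against 23.2 to 1676 in the other libraries, and the 10 thalamus markers to 309 to 477 in KI against 227 to 253 in KI_WT. Olfactory bulb markers summed to 98.2, 132 and 86.6 CPM in KI and 64.1, 72.6 and 386 in KI_WT. Of the wild types only KI_WT 3 lay above KI. In the fit these markers were lower in 7 of 8 (median -1.51), and those of oligodendrocyte precursors were higher in 5 of 6 (0.28). Markers of cortical glutamatergic neurons were lower in 9 of 10 (-0.12). The part of choroid plexus, thalamus and olfactory bulb markers in the levels of the genes above was tested only through the terms for regional markers. Those terms cannot be fully told apart from the group. The part of the other transcripts listed here was not tested.

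In KI against KO 0 of 79 members passed by edgeR (background 0.00573%, smallest adjusted p 0.811). At an unadjusted p under 0.05 there were 0 higher (background 1.82%) and 7 lower (background 3.61%), among them Rpl27, Rpl24, Rpl31, Rpl17, Rps7 and Rpl39. The KI libraries all lay below the KO libraries for 11 members (background 5.97%) and above them for 0 (background 4.23%). The fitted value was above 0 for 33 members (background 50.7%) and below 0 for 46 (background 49.3%). The median log2 fold change was -0.03 (0.00 over all tested genes), and it was 0.06 without KO 1. Transcripts of the mitochondrial genome were lower in 9 of 13 and higher in 4 (median -0.46). Markers were higher in 6 of 6 of oligodendrocyte precursors (0.27), 9 of 9 of oligodendrocytes (0.21), 7 of 7 of endothelium (0.17) and 8 of 8 of choroid plexus (0.49). Olfactory bulb markers were lower in 8 of 8 (-0.53). Their part was not tested beyond the fit with terms for regional markers.

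Rpl27 ranked 7th among the 17441 genes by p. Its log2 fold change was -0.52 (SE 0.11, 95% interval -0.75 to -0.28; adjusted p = 0.811 with edgeR). DESeq2 gave -0.51 with an adjusted p of 0.0398, the 1 member it called. Its calls over all genes were not counted, so this call stands without a background. Over the leave-outs of single libraries the edgeR value ran from -0.60 (without KI 1) to -0.43 (without KO 1). Rpl31 was at -0.42 (SE 0.14) and Rpl24 at -0.41 (SE 0.13). KI and KO are also the first groups of the comparisons above, so these values are not independent of them. They come from different lines, so line and genotype cannot be told apart in KI against KO.

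**Figure D5:**
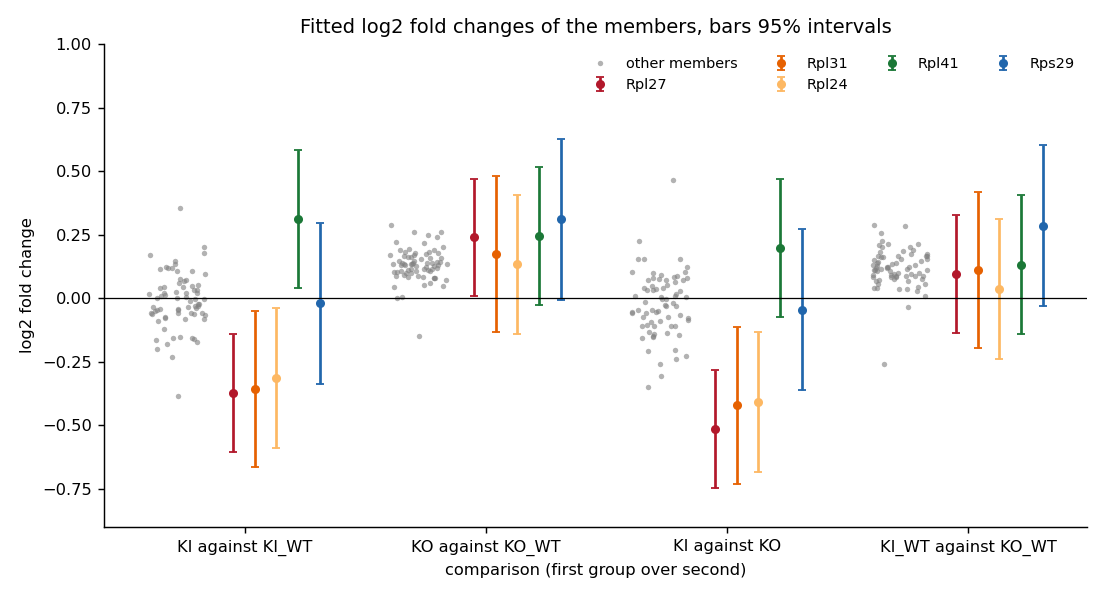
Fitted log2 fold changes of the members in the 4 comparisons, with grey points for other members and coloured points with 95% intervals for Rpl27, Rpl31, Rpl24, Rpl41 and Rps29. Most members lie above 0 in KO against KO_WT and between the wild types, and Rpl27 is lowest in KI against KO at -0.52.

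In KI_WT against KO_WT 77 members were higher (background 50.1%) and 2 lower (background 49.9%), with a median log2 fold change of 0.12 (0.00 over all tested genes), close to the 0.13 of KO against KO_WT, which shares the KO_WT libraries. By edgeR 0 of 79 passed (background 0%), 0 had an unadjusted p under 0.05 (background 1.11% higher and 0.849% lower), and DESeq2 called 0. Groups overlapped for every member, where 3.48% of tested genes were higher and 3.83% lower without overlap. Rps29 (0.28, SE 0.15), Rps21 (0.29, SE 0.15), Rpl38 (0.22, SE 0.12) and Rpl34 (0.18, SE 0.096) had the smallest p, and without KI_WT 2 Rps29 was at 0.10 and Rpl38 at 0.07. Choroid plexus and olfactory bulb markers were higher in 8 of 8 each (medians 1.23 and 0.99). Olfactory bulb sums were 64.1, 72.6 and 386 CPM in KI_WT and 58.7, 62.0 and 212 in KO_WT. Those of choroid plexus were 1676, 1223 and 29.7 CPM in KI_WT and 23.2, 904 and 34.1 in KO_WT. Lower were 8 of 9 oligodendrocyte markers (-0.32), 6 of 6 of their precursors (-0.29) and 7 of 7 of striatum (-0.25). With terms for regional markers the members' median was 0.040. Without KI_WT 2 the median was 0.02 and without KI_WT 1 it was 0.21. Both groups are labelled wild type.

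The difference between the KI and KO effects had 70 of 79 members below 0 (background 51%) and 9 above (background 49%), with a median of -0.16 (-0.01 over all tested genes). This contrast reuses all 4 groups. By edgeR 0 passed (background 0.00573%) and 8 had an unadjusted p under 0.05 in the lower direction (background 3.21%), against 0 in the higher one (background 2.05%). Rpl27 was at -0.61 (SE 0.15; adjusted p = 0.918 with edgeR) and Rpl39, an X-linked gene for a small tunnel protein, at -0.63 (SE 0.22). Without KI_WT 2 and KO 1 the median was 0.040. These libraries had the highest family medians and both enter with a minus sign, so leaving them out raises the value by construction. With single libraries left out the median ran from -0.22 to -0.05. With terms for regional markers it was -0.04. There Rpl27 was at -0.45.

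Related genes outside the rule were compared from lists, and none was called by edgeR in KI or in KO. Of 7 tested paralogs 5 were higher and 2 lower in KO. Rpl22l1, the paralog of Rpl22, was at 99.7, 91.5 and 72.6 CPM in KO and 63.7, 66.2 and 73.7 in KO_WT, groups that overlapped through KO 3 (0.37 on the log2 scale, SE 0.14; adjusted p = 0.678 with edgeR). Rpl36al was at 0.27 (SE 0.12), Rps27l at 0.25 (SE 0.14) and Rpl7l1 at -0.03. The scarce Rpl3l (107 counts), Rps27rt (142 counts) and the variable Rps4l had SE of 0.37, 0.38 and 0.30. In KI Rps27l was at -0.26 (SE 0.14). Rpl10l, which stands in for X-linked Rpl10 in male germ cells, had 0 counts in all libraries. Fau, whose product is a ribosomal protein fused to a ubiquitin-like protein, was at 0.12 in KO and 0.01 in KI.

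For other messengers with a TOP tract (16 tested) the median was 0.06 in KO, with 14 higher, and -0.04 in KI, with 12 lower. Among them Eef1d, an exchange factor of elongation, was at 0.25 in KI (SE 0.080) and Eif3e at -0.20 (SE 0.079). Translation initiation factors (30 tested) were at 0.06 in KO and -0.03 in KI, ribosome assembly factors (34) at 0.08 and 0.04, and RNA polymerase I and its factors (12) at 0.07 and 0.04. Nop10, of the particles that make pseudouridine in ribosomal RNA, was at -0.34 in KI (SE 0.11) and 0.31 in KO (SE 0.11). Regulators of ribosomal protein synthesis (14) were at -0.07 in KO and 0.01 in KI, with Larp1 at 0.20 in KI (SE 0.083) and the transcription factor Myc at 0.32 in KO (SE 0.16). Taf1d, of the polymerase I list, was at -0.25 in KI and 0.25 in KO (SE 0.12 in both).

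Counting could touch some members. Rows named as pseudogenes of 56 members (243 rows, 68 without a count) held 17220 counts, or 0.307% of the 5612864 counts of the members. Genes on the opposite strand overlap 21 members, among them Rpl3 with Syngr1, and genes on the same strand overlap 6. A total of 30 members carry snoRNA genes within them, 59 in all.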

How the data were processed

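Cortex RNA of 12 mice was analysed. The deposited count table holds whole reads per gene, and the authors' deposited RPKM table holds the same genes. Count over RPKM gave one length per gene to within 0.0534% (8292 genes). The submitters' processing notes name bcl2fastq 2.17, STAR 2.5.0c, Cufflinks 2.2.1 and GRCm38. The read counter, its gene models and its use of strand are not given in the sources used here, and overlapping genes can share reads. Pairs of libraries of a group differed by more than sampling noise (chi-square over degrees of freedom 13.1 to 71.2 in 12 pairs).

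edgeR 4.0.16 (R 4.3.3) was fitted to 17441 genes over 12 libraries, with TMM, 1 mean per group and Benjamini-Hochberg adjustment over all genes within a comparison (threshold 0.05). Alternatives used DESeq2 1.42.0 and limma 3.58.1. The fit was tested on simulated data. Whether the numbered animals were littermates was not stated.

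Members and lists were chosen with earlier results of these data known. Named members have the 4 smallest p of each pairwise comparison, the 6 highest or 4 lowest RPKM, or the 4 largest or 4 smallest spreads around the family. The stalk genes, Rpsa and up to 2 genes per related list were added. Rpl39, Rpl17, Rps7 and the role examples were named after their values were seen. Coordinates and biotypes are GENCODE vM21 (40340 genes matched), start windows RefSeq GRCm38.p6. Protein sequences were not used here. Values of 3 genes are not reported here, and members among them are left out of plots of single genes but stay in counts and medians.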

Additional observations from a re-analysis of the deposited data

How the results depend on the processing

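Of the counts of members passing the threshold, the value was 0 in all comparisons and alternatives except KI against KO with DESeq2. There it was 1 (Rpl27, -0.51), without a background over all genes. Medians moved by more than the spread of replicates in 2 cases, to 0.13 for KI against KI_WT with terms for regional markers and to 0.040 for the difference of effects without KI_WT 2 and KO 1. In the former the regional terms cannot be fully told apart from the group, and the cause was not tested. In the latter the libraries left out had the highest family medians. With single libraries left out the count stayed at 0 in every comparison. The medians ran from -0.10 to 0.08 (KI against KI_WT), 0.06 to 0.20 (KO against KO_WT), -0.10 to 0.06 (KI against KO), 0.02 to 0.21 (wild types) and -0.22 to -0.05 (difference). The share of counts differed by -0.0448 to 0.122 percentage points for KI against KI_WT (-0.0157 without KI 2, -0.0448 without KI_WT 1) and by -0.0899 to 0.0727 for KI against KO (0.0344 without KI 3, 0.0727 without KO 1), and so changed direction. It ran from 0.0826 to 0.245 for KO against KO_WT and from 0.0336 to 0.200 for the wild types. With the mitochondrial genome taken out of the total, the KI against KI_WT difference was 0.00409, beside 0.0363 with the full total. For KI against KO it was -0.0500 beside -0.0172, and for KO against KO_WT 0.181 beside 0.172. The spread of levels was 2.63 per coding kb, since the length differs. Coding length from RefSeq proteins was not run. No paired analysis was possible because the labels give no replicate numbers that the groups share. With 3 libraries a group and a median SE of 0.107, log2 differences of the size of the medians lie within the intervals of single genes.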
